A study of Mus musculus with 4 samples.

Results

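In 4T07 cells, 51 genes of ribosome biogenesis and RNA polymerase I (Pol I) were followed across the 4 RNA-seq libraries of the study. They were chosen by gene symbol, with earlier results of these data known. All 51 were found among the 24421 genes of the deposited table. 4T07 cells derive from a mammary carcinoma of mice, with the strain given as Balb/cfC3H. The 2 libraries labelled Six2 came from cells labelled as overexpressing Six2, a homeobox transcription factor, and the 2 control libraries came from 4T07 cells labelled control. All cells were grown in the same calf serum medium and harvested 48 hours after plating, and the promoter and the clonality of the overexpressing line are not stated in the labels. Each group has a replicate 1 and a replicate 2, and the labels say neither what a replicate number stands for nor whether replicates were separate cultures, so p-values reflect how far these libraries spread, and that spread may be technical.

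Ribosomes are assembled in the nucleolus. Pol I transcribes the ribosomal RNA precursor, small nucleolar ribonucleoproteins (snoRNPs) guide its chemical modification, and large sets of processing and assembly factors cut and fold it into the small and the large subunit. Their genes are widely expressed, often rise together in growing and tumour cells, and many are known targets of the transcription factor Myc.

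The values were RPKM, reads scaled to gene length and to the library's read total. Six2 itself was listed at 0 RPKM in Six2-labelled replicate 2, 0.0285 RPKM in Six2-labelled replicate 1 and 0 RPKM in both control libraries. The table thus does not show the overexpression, and whether reads of an introduced coding sequence would be counted under this gene is not given, so groups carry their labels below and a direction given for them holds for libraries as labelled. The read totals recovered from the RPKM steps were 81524250 and 49910629 for Six2-labelled replicates 2 and 1, and 41881864 and 43110985 for control replicates 2 and 1. Each of the 51 genes had between 770 and 205336 reads in every library. The keratin markers Krt8 and Krt18 were abundant, at 389 to 1059 RPKM over the 4 libraries, whereas the epithelial surface marker Epcam stayed below 1 RPKM. The leukocyte markers summed to 5.01 to 12.5 RPKM, nearly all of it Cd68, and the fibroblast markers to 5.18 to 9.92 RPKM, mostly Pdgfra. The endothelial marker Kdr and the adipocyte marker Plin1 were at 0 in every library.

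Nearly the whole set was higher in the libraries numbered replicate 2 than in those numbered replicate 1, in both groups. The summed level differed less between the libraries labelled Six2 and the control libraries. The summed level of the 51 genes was 4257 RPKM in Six2-labelled replicate 2 against 3080 RPKM in Six2-labelled replicate 1, a ratio of 1.38. In control cells it was 3878 RPKM in replicate 2 against 2793 RPKM in replicate 1, a ratio of 1.39. Between groups the ratio of the sums, libraries labelled Six2 over control, was 1.098 within replicate 2 and 1.103 within replicate 1. Npm1 alone made up 780 to 1157 RPKM of these sums, and without it the ratio of replicate 2 over replicate 1 was 1.41 in either group.

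**Figure D1:**
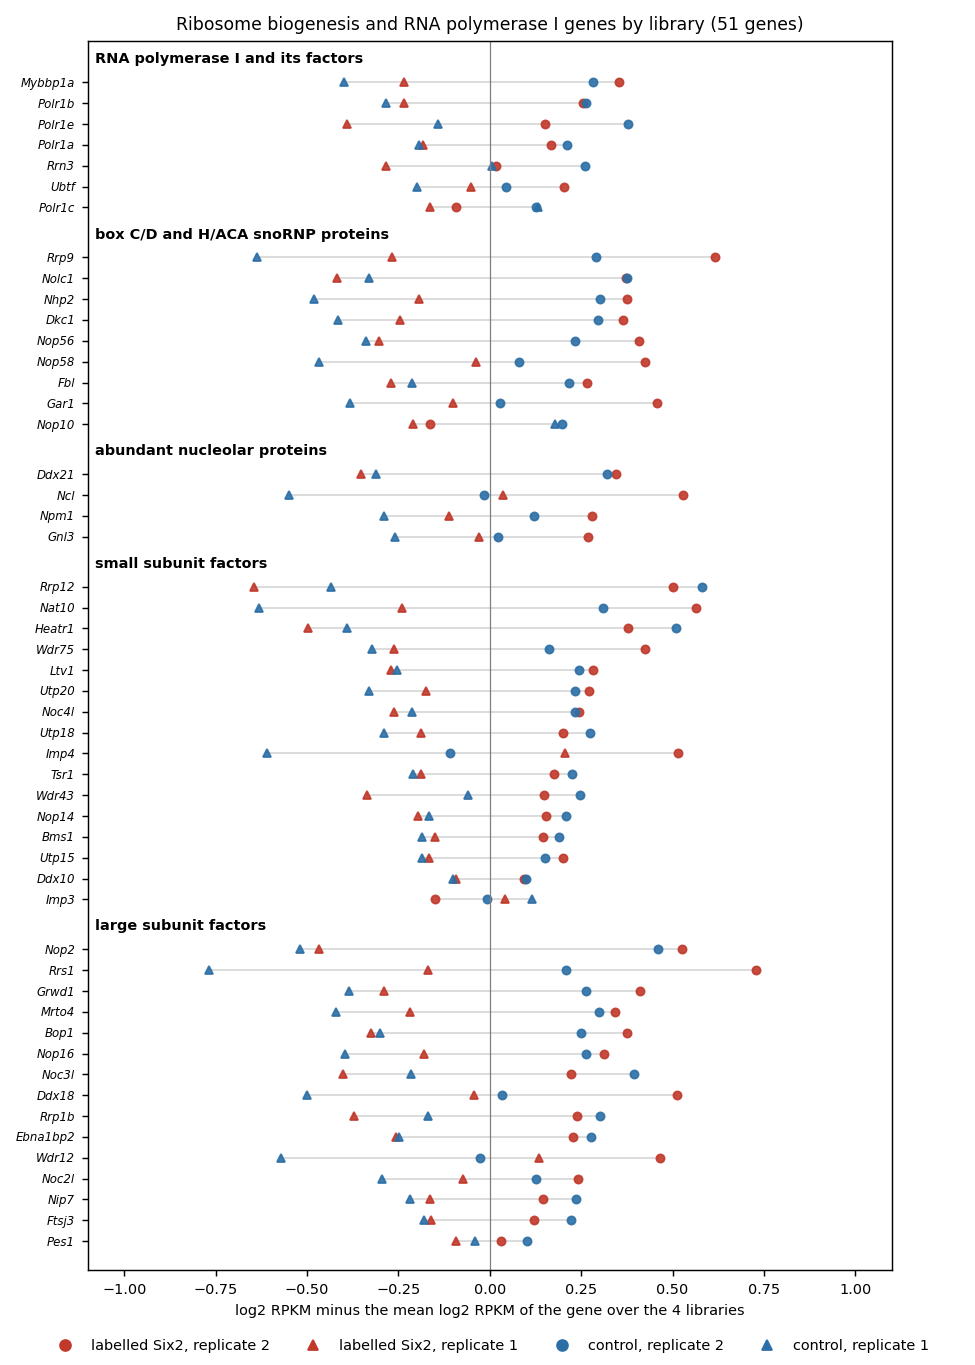
Each row is a gene, grouped by role, and the x axis gives its log2 RPKM in a library minus its mean over the 4 libraries. Circles are replicate 2, triangles replicate 1, red the libraries labelled Six2 and blue the control libraries. Circles lie right of triangles in nearly every row, and in 45 rows both circles lie right of both triangles.

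The first question was how the libraries numbered 2 and 1 differed. A linear model of log2(RPKM + 1) with terms for group and replicate number (limma with a variance trend, two-sided, Benjamini-Hochberg adjustment over the 10654 genes that reached 1 RPKM in 2 libraries or more) was used, and all 51 genes passed that filter. Of the 51, 47 were higher in replicate 2 and 1 was lower at an adjusted p under 0.05. The same rule called 20.7% of all tested genes higher and 24.1% lower. As the set was chosen with earlier results of these data known, its contrast with all tested genes is a description and no independent test. The members' median difference was 0.48 on the log2(RPKM + 1) scale, against -0.0112 over all tested genes, whose 95th percentile was 0.419. Both replicate 2 libraries lay above both replicate 1 libraries for 45 members, which was so for 23.6% of tested genes, and below them for 1 member, Imp3, against 24.6%. At an unadjusted p under 0.05 there were 49 members, against 53.4% of tested genes. In 49 members replicate 2 was higher within either group, against 39.7% of tested genes. These calls need the group term: with replicate number as the single term in limma, 0 of the 51 and 0 of all tested genes passed, the smallest adjusted p of a member was 0.214, and 37 members and 1765 genes had an unadjusted p under 0.05. With 2 libraries against 2, an exact permutation test of a single gene cannot go below p = 0.333.

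The replicate difference was seen separately in the cells labelled Six2 and in control cells. The ratio of replicate 2 to replicate 1 spanned 0.875 to 2.21 over the 51 genes in the libraries labelled Six2 and 0.919 to 2.02 in the control libraries. Each of these ratios compares 1 library with 1 other, and the 2 ratios share no library. Polr1c and Imp3 were the members not higher in replicate 2 within both groups. The size of the difference had little relation to a member's mean level (r = -0.0784 across 51 genes) or to its length in the authors' scaling (r = 0.20), lengths that ran from 738 to 8831 bases.

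**Figure D2:**
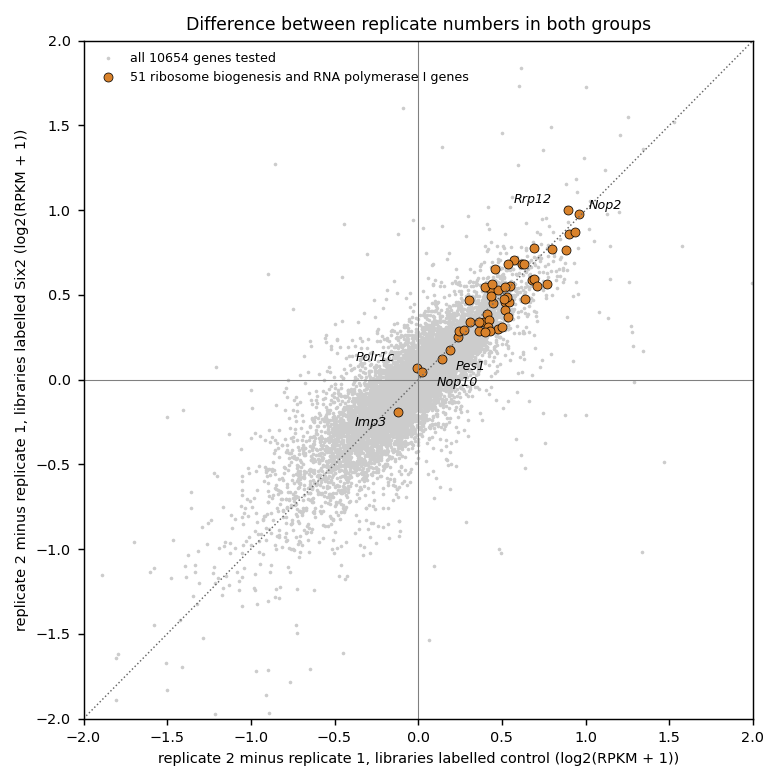
Each point is a gene, with the replicate 2 minus replicate 1 difference on the log2(RPKM + 1) scale in control libraries on the x axis and in libraries labelled Six2 on the y axis. Grey points are all tested genes, orange points the 51 genes, and 7 tested genes lie outside the axes. All but a few orange points sit in the upper right, along the dotted line of equal difference, with Imp3 on the lower left.

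The promoters of 4 genes are shown because their genes rose in replicate 2 and hold the E-box CACGTG, the palindromic site that Myc-Max dimers are known to bind. Sequences come from RefSeq (GRCm38.p6), run from 250 bases before to 50 bases after the start site, 5′ to 3′ on the gene's strand, and carry the E-box in capitals. RefSeq windows matched 46 of the 51 genes, and 11 of these genes (23.9%) held CACGTG, against 8.09% of all 27025 genes of the promoter table. Counted by window it was 20% of 55 against 7.15% of 32851. The share was not particular to the 51 genes. By gene it was 38.5% (5 of 13) in the Myc and Max network and 26.7% (4 of 15) for RNA polymerase III. For other biogenesis factors it was 18.1% (15 of 83). For the rest of Pol I it was 13.3% (2 of 15), and for snoRNA host genes 9.09% (1 of 11). It was 13.9% (5 of 36) for large and 4% (1 of 25) for small subunit ribosomal proteins. The share over the tested genes alone was not computed. The motif reads the same on both strands and was the single motif searched. The 11 genes with it had a median replicate difference of 0.451 and the 35 without it 0.488. A match describes letters in the window and shows no binding.
Nop2, chr6:125131633-125131932, plus strand: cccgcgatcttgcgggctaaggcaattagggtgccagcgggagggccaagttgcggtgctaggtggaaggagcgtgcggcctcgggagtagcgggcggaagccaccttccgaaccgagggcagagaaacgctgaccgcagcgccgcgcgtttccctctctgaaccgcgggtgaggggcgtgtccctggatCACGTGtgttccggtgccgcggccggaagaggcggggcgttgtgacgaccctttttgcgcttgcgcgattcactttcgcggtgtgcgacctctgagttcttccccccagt
Grwd1, chr7:45830740-45831039, minus strand: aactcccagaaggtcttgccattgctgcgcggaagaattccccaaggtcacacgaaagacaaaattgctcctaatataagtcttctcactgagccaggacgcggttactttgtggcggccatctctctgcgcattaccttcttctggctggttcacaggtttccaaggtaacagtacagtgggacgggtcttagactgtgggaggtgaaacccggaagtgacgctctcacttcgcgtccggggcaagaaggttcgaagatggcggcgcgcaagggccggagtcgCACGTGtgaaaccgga
Mybbp1a, chr11:72441077-72441376, plus strand: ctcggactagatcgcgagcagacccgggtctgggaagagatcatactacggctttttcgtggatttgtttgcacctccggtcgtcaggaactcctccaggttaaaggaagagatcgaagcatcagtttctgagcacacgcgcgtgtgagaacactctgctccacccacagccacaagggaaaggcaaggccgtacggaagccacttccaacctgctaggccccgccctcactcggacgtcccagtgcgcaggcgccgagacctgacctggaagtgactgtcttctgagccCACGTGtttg
Ltv1, chr10:13193088-13193387, minus strand: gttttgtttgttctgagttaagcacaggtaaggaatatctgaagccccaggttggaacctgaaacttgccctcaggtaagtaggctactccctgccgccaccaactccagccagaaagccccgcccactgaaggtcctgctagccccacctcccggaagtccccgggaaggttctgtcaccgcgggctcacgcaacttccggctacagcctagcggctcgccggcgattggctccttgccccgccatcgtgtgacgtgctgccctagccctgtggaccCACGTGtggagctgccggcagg
In Nop2 the motif starts 60 bases before the start site, and in Grwd1, Mybbp1a and Ltv1 it starts at positions 35, 41 and 29 after it.

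Of the 7 genes of Pol I and its factors, 6 were higher in replicate 2 (median difference 0.366). Polr1a and Polr1b encode the largest and second largest subunits, the catalytic core of the enzyme. Polr1a had 30.7 RPKM in Six2-labelled and 31.7 RPKM in control replicate 2, against 24.1 and 23.9 RPKM in the replicate 1 libraries of the same groups. Polr1b had 20.1 and 20.3 RPKM in Six2-labelled and control replicate 2, against 14.3 and 13.9 RPKM in replicate 1. Polr1c, a subunit shared with RNA polymerase III, did not pass: 43.9 RPKM in Six2-labelled and 51.1 RPKM in control replicate 2, against 41.8 and 51.3 RPKM in replicate 1 (difference 0.03, SE 0.0509, limma adjusted p = 0.636). The values of Polr1a, Polr1b and Polr1c were singled out after they were seen. The Polr1a to Polr1c ratio was 0.699 and 0.62 in Six2-labelled and control replicate 2, against 0.576 and 0.466 in replicate 1. It did not overlap between replicate numbers, but as Polr1c hardly differed it mostly restates the difference of Polr1a.

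Among the Pol I factors, Mybbp1a, a nucleolar Myb-binding protein that acts in Pol I transcription, had the largest difference. It stood at 179 RPKM in Six2-labelled and 171 RPKM in control replicate 2, against 119 and 106 RPKM in replicate 1, a rise of 0.63 (SE 0.052, limma adjusted p = 0.000248). Ubtf, which encodes the upstream binding factor of ribosomal DNA, had 57.6 and 51.6 RPKM in Six2-labelled and control replicate 2, against 48.2 and 43.5 RPKM in replicate 1, a rise of 0.24 (SE 0.0489). Rrn3, the growth-regulated factor that brings Pol I to its promoter, had 21.8 and 25.8 RPKM in Six2-labelled and control replicate 2, against 17.7 and 21.6 RPKM in replicate 1, a rise of 0.27 (SE 0.0534). The initiation-linked factors thus differed by less than Mybbp1a, though their difference from it was not tested.

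The snoRNP proteins were the role group with the largest median difference (0.639), and 8 of 9 were higher in replicate 2. Box C/D snoRNPs methylate ribosomal RNA, and their core scaffold Nop56 had 255 RPKM in Six2-labelled and 226 RPKM in control replicate 2, against 156 and 152 RPKM in replicate 1 (difference 0.64, SE 0.0562, limma adjusted p = 0.000309). Its partner Nop58 had 155 and 122 RPKM in Six2-labelled and control replicate 2, against 112 and 83.5 RPKM in replicate 1. Fbl, the methyltransferase fibrillarin, had 200.2 and 193 RPKM in Six2-labelled and control replicate 2, against 138 and 144 RPKM in replicate 1. In all 3 core genes both replicate 2 libraries lay above both replicate 1 libraries.

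Rrp9, which belongs to the U3 snoRNP needed for early precursor cleavage, moved most in this role. It had 58.3 RPKM in Six2-labelled and 46.6 RPKM in control replicate 2, against 31.7 and 24.5 RPKM in replicate 1, a rise of 0.88 (SE 0.0502, limma adjusted p = 8.73e-05). Nolc1, a chaperone of snoRNPs in the nucleolus and Cajal bodies, had 75.5 and 75.6 RPKM in Six2-labelled and control replicate 2, against 43.7 and 46.4 RPKM in replicate 1, a rise of 0.74.

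The H/ACA snoRNPs, which convert uridine to pseudouridine, have 4 core proteins, and 3 of their genes were higher in replicate 2. The pseudouridine synthase gene Dkc1 had 48.6 and 46.4 RPKM in Six2-labelled and control replicate 2, against 31.9 and 28.3 RPKM in replicate 1. Nhp2 had 120.3 and 114 RPKM in Six2-labelled and control replicate 2, against 81.0 and 66.4 RPKM in replicate 1. Gar1 rose by 0.47 (SE 0.0563). The fourth core gene, Nop10, named after its values were seen, was at 56.8 and 73.1 RPKM in Six2-labelled and control replicate 2, against 55.0 and 72.0 RPKM in replicate 1 (difference 0.03, SE 0.0487, limma adjusted p = 0.609). The Dkc1 to Nop10 ratio was 0.856 and 0.634 in Six2-labelled and control replicate 2, against 0.579 and 0.393 in replicate 1. The Nhp2 to Nop10 ratio likewise did not overlap between replicate numbers, at 2.12 and 1.56 in Six2-labelled and control replicate 2, against 1.47 and 0.923 in replicate 1. The Gar1 to Nop10 ratio did overlap, at 0.973 and 0.562 in Six2-labelled and control replicate 2, against 0.683 and 0.429 in replicate 1. As Nop10 hardly differed by replicate number, the ratios to it mostly restate the differences of the other genes.

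All 4 abundant nucleolar proteins were higher in replicate 2. Npm1, nucleophosmin, a histone and ribosome chaperone with many near-identical gene copies, had 1157 RPKM in Six2-labelled and 1038 RPKM in control replicate 2, against 884 and 780 RPKM in replicate 1 (difference 0.40, SE 0.0629, limma adjusted p = 0.00241). Its call ended with no filter on low values (limma adjusted p = 0.0549). Ncl, nucleolin, which acts in Pol I transcription and precursor processing, had 305 and 209 RPKM in Six2-labelled and control replicate 2, against 217 and 144 RPKM in replicate 1. Within either group replicate 2 was the higher, but control replicate 2 lay below Six2-labelled replicate 1. Ddx21, an RNA helicase that links Pol I transcription to snoRNA release, had 65.9 and 64.8 RPKM in Six2-labelled and control replicate 2, against 40.7 and 41.8 RPKM in replicate 1, a rise of 0.65 (SE 0.0501). Gnl3, nucleostemin, rose by 0.28.

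Of the 16 small subunit factors, 15 were higher and 1 lower in replicate 2 (median 0.42). Rrp12, which acts in maturation and export of precursor subunits in yeast, had 10.2 RPKM in Six2-labelled and 10.8 RPKM in control replicate 2, against 4.62 and 5.35 RPKM in replicate 1, ratios of 2.21 and 2.02 within the groups. Nat10, the acetyltransferase of small subunit ribosomal RNA, had 24.3 and 20.4 RPKM in Six2-labelled and control replicate 2, against 13.9 and 10.6 RPKM in replicate 1. Heatr1, a processome component needed for Pol I transcription, had 10.1 and 11.1 RPKM in Six2-labelled and control replicate 2, against 5.51 and 5.94 RPKM in replicate 1. These 3 rose by 0.95, 0.82 and 0.79, and the replicate numbers did not overlap.

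The other small subunit factors called higher moved less. Wdr43, a processome factor, had 57.2 and 61.3 RPKM in Six2-labelled and control replicate 2, against 41.0 and 49.6 RPKM in replicate 1. The remaining 11 rose by 0.18 (Ddx10, a helicase) to 0.56 (Wdr75). Tsr1, one of them, shares 34.2% of its exon bases with Srr on the opposite strand, and since the strand setting of the counting is not given its value is uncertain. Imp3 and Imp4 are partners in the U3 complex and went apart. Imp3 had 47.1 and 52.0 RPKM in Six2-labelled and control replicate 2, against 53.8 and 56.6 RPKM in replicate 1, a fall (difference -0.15, SE 0.0504, limma adjusted p = 0.0403). The call of Imp3 ended with median-of-ratios scaling (adjusted p = 0.0948), with chromosome medians removed (0.0519) and with no filter (0.0798). Imp4 had 37.5 and 24.4 RPKM in Six2-labelled and control replicate 2, against 30.3 and 17.2 RPKM in replicate 1, a rise of 0.39. Control replicate 2 lay below Six2-labelled replicate 1, so the replicate numbers overlapped for Imp4.

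Of the 15 large subunit factors, 14 were higher in replicate 2 (median 0.535). Nop2, a methyltransferase of large subunit ribosomal RNA long used as a proliferation marker, had the largest log2(RPKM + 1) difference of the set. It had 85.2 RPKM in Six2-labelled and 81.4 RPKM in control replicate 2, against 42.8 and 41.3 RPKM in replicate 1, ratios of 1.99 and 1.97 (difference 0.97, SE 0.0486, limma adjusted p = 7.45e-05). Rrp12 had larger ratios, and with a pseudocount of 0.1 its difference was 1.07 against 0.985 for Nop2. Rrs1, needed to bring the 5S particle to the precursor in yeast, had 48.9 and 34.1 RPKM in Six2-labelled and control replicate 2, against 26.2 and 17.3 RPKM in replicate 1. Grwd1, a histone-binding assembly factor, had 54.9 and 49.5 RPKM in Six2-labelled and control replicate 2, against 33.8 and 31.6 RPKM in replicate 1. Mrto4, which resembles a stalk protein and holds its place during assembly, had 93.2 and 90.4 RPKM in Six2-labelled and control replicate 2, against 63.2 and 55.0 RPKM in replicate 1. None of these 4 overlapped between replicate numbers.

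Pes1, Bop1 and Wdr12 form the PeBoW complex of large subunit processing, and their mRNAs did not differ alike. Bop1 had 56.0 and 51.3 RPKM in Six2-labelled and control replicate 2, against 34.4 and 35.03 RPKM in replicate 1, a rise of 0.61. Wdr12 had 20.1 and 14.3 RPKM in Six2-labelled and control replicate 2, against 16.0 and 9.78 RPKM in replicate 1, a rise of 0.41 with overlap between the numbers. Pes1, named after its values were seen, had 63.2 and 66.5 RPKM in Six2-labelled and control replicate 2, against 58.1 and 60.2 RPKM in replicate 1, and missed the threshold (difference 0.13, SE 0.0486, limma adjusted p = 0.0629). With median-of-ratios scaling Pes1 passed (adjusted p = 0.0276). The Bop1 to Pes1 ratio was 0.885 and 0.772 in Six2-labelled and control replicate 2, against 0.593 and 0.581 in replicate 1. As Pes1 differed little, this ratio mostly restates the difference of Bop1. Noc2l, of a complex that carries precursors out of the nucleolus, had 106 and 97.4 RPKM in Six2-labelled and control replicate 2, against 84.9 and 72.7 RPKM in replicate 1. It shares 20.9% of its exon bases with Samd11 on the opposite strand. The remaining 7 genes of this role rose by 0.34 (Ftsj3) to 0.56 (Nop16).

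Genes outside the 51 were taken from lists of the same pathway, also chosen with earlier results of these data known. They are read against the 20.7% of all tested genes called higher and 24.1% called lower, with a median of -0.0112. Of 103 further biogenesis factors tested, 77 were higher and 3 lower in replicate 2 (median 0.293). The largest rises were those of Lyar, a nucleolar regulator of ribosomal RNA processing (92.4 and 87.5 RPKM in Six2-labelled and control replicate 2, against 52.8 and 50.7 RPKM in replicate 1), the nucleolar protein gene Nol8 and the helicase gene Ddx31. The 3 that fell were Eftud1, Nsa2 and the exonuclease gene Xrn2. Of 16 other Pol I subunit and promoter factor genes, 6 were higher and 1 lower (median 0.145). Taf1c, Cd3eap and Polr1d led the rises and Taf1b, of the same promoter selectivity factor as Taf1c, was lower by 0.37. RNA polymerase III makes 5S and transfer RNAs, and of its 22 genes 10 were higher and 2 lower (median 0.118). Bdp1, Polr3e and Polr3g led the rises. Those that fell were Maf1, the repressor of the enzyme (30.9 and 32.3 RPKM in Six2-labelled and control replicate 2, against 41.5 and 42.5 RPKM in replicate 1), and Polr3gl, an alternative to the subunit encoded by Polr3g, which rose by 0.27.

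The ribosomal protein genes did not follow. Of 82 tested, 6 were higher and 1 lower in replicate 2, and the medians were 0.049 for the large and 0.0173 for the small subunit. Their summed level was 84976 RPKM in Six2-labelled and 82306 RPKM in control replicate 2, against 81222 and 82144 RPKM in replicate 1, ratios of 1.05 and 1.00. Among the called ones, Rps2 had 2924 and 2919 RPKM in Six2-labelled and control replicate 2, against 2434 and 2425 RPKM in replicate 1. Rps21 was the 1 that fell. Rpl26 and Rpl34, also called higher, stood at only 5.08 to 20.7 RPKM, far under Rplp1 at 2415 RPKM or more, and such genes with near-identical copies are uncertain. Of 11 snoRNA host genes tested, 5 were higher and 1 lower, led by Snhg5, Gas5 and Snhg4 (rises of 0.48, 0.42 and 0.38), and Snhg8 fell by 0.18.

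The Myc and Max network moved in both directions. Myc, which activates many of the 51 genes in other systems, had 55.9 RPKM in Six2-labelled and 46.1 RPKM in control replicate 2, against 37.6 and 35.5 RPKM in replicate 1, a rise of 0.46 (SE 0.0608, limma adjusted p = 0.00119). Mlx and Max were the other 2 of 11 tested that rose, by 0.44 and 0.17. Of the 5 that fell, the Myc antagonists Mxd4 and Mnt moved most, ahead of Mlxip. Mxd4 had 3.63 and 3.87 RPKM in Six2-labelled and control replicate 2, against 9.41 and 10.2 RPKM in replicate 1, and Mnt had 9.59 and 9.82 RPKM in Six2-labelled and control replicate 2, against 17.0 and 17.9 RPKM in replicate 1. In both antagonists all values of replicate 2 lay below all of replicate 1.

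**Figure D3:**
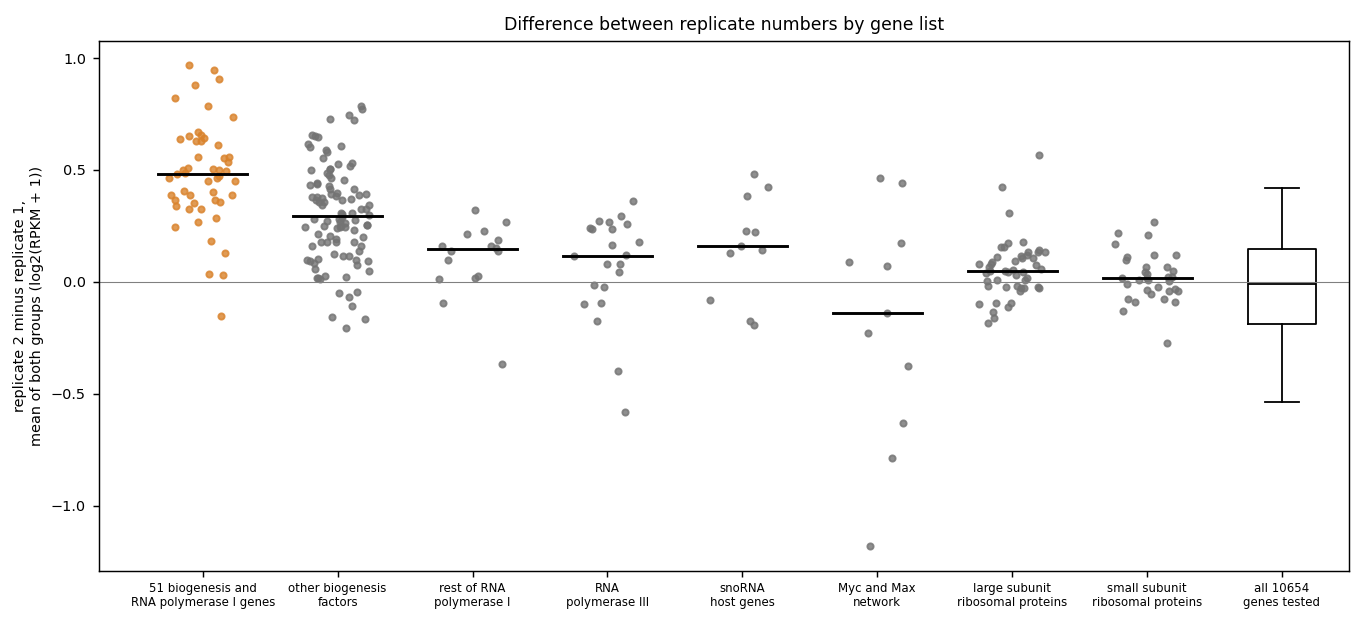
Points are tested genes of each list and the y axis is the replicate 2 minus replicate 1 difference, mean of both groups, on the log2(RPKM + 1) scale. Short lines are list medians, and the box on the right spans the quartiles of all tested genes with whiskers at the 5th and 95th percentiles. The medians run from 0.48 for the 51 genes and 0.293 for other biogenesis factors to 0.049 and 0.0173 for ribosomal proteins and -0.139 for the Myc and Max network.

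Other features moved with replicate number. Of the 5 epithelial markers tested 4 were lower in replicate 2, and their list summed to 998 RPKM in Six2-labelled and 1238 RPKM in control replicate 2, against 1664 and 1894 RPKM in replicate 1. The mesenchymal markers summed to 1889 and 2210 RPKM in Six2-labelled and control replicate 2, against 1856 and 2254 RPKM in replicate 1, and most of that sum was Vim, which was not called. Of the 3 mesenchymal markers 1 was called, Fn1, which was lower in replicate 2 (difference -0.59, limma adjusted p = 0.000765). Cd68, the leukocyte marker tested, and Pdgfra, the fibroblast marker tested, were also lower in replicate 2. The part of these in the difference of the 51 genes was not tested, and in bulk RNA fewer cells of a kind and less RNA per cell cannot be told apart. The read total was higher in replicate 2 among the libraries labelled Six2 and lower in replicate 2 among the control libraries. The members' sums had ratios of 1.38 in the libraries labelled Six2 and 1.39 in the control libraries. The part of depth in the difference was not tested.

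The second question was how the libraries labelled Six2 differed from the control libraries. With group as the single term none of the 51 genes was called (limma, 0 of 51 at an adjusted p under 0.05, smallest adjusted p 0.176). Of all tested genes 0.113% were, 0.0282% higher and 0.0845% lower. The count depends on the terms of the fit. With group and replicate number as terms, as in the replicate comparison, 12 members were called higher and 4 lower. The 12 include Imp4, Ncl, Wdr12, Rrs1, Ddx18, Nop58 and Gar1, and the 4 include Nop10, Polr1c and Rrn3. In that fit limma adjusted p was 0.000206 for Imp4, 0.000234 for Ncl, 0.00109 for Nop10, 0.00649 for Polr1c and 0.0076 for Rrn3. That fit called 2133 of the 10654 tested genes higher and 2506 lower. It also gave 22 members and 5575 of all tested genes at an unadjusted p under 0.05 in limma. With group as the single term there were 3 members at that unadjusted limit in limma, Nop10, Imp4 and Polr1c, against 17% of tested genes. Voom on recovered reads with that single term likewise called 0 members and gave 3. In the single-term fit replicate differences count as spread within a group, and most members had large ones. These counts thus cannot show that members differed less between the labels than other genes. The members' median difference was 0.018, against -0.0119 over all tested genes, and 41 of 51 lay within 0.3 of 0. Within both replicate numbers 24 members were higher in the libraries labelled Six2, against 39.3% of tested genes, and 14 were lower, against 43.7%. Leaving out control replicate 1 or Six2-labelled replicate 2 turned the median to -0.217 and -0.176, and leaving out control replicate 2 or Six2-labelled replicate 1 gave 0.302 and 0.297. By construction each of these comparisons is uneven in replicate number, and the cause of the change was not tested.

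For 3 genes both Six2-labelled libraries lay above both control libraries, a pattern that 21.9% of tested genes showed, and all 3 lie on chromosome 1. A large replicate difference makes overlap between the groups more likely, so the members and all tested genes are not compared alike here. Imp4 (34439851 to 34449356, GRCm38) averaged 33.9 ± 5.10 RPKM in the libraries labelled Six2 and 20.8 ± 5.06 RPKM in control libraries (SD, n = 2 each, difference 0.69, SE 0.211, limma adjusted p = 0.233). Ncl (86344719 to 86359400) averaged 261 ± 62.3 RPKM in the libraries labelled Six2 and 177 ± 45.9 RPKM in control libraries, a difference of 0.56 (SE 0.259). Within replicate 2 Ncl differed by 0.54 and within replicate 1 by 0.58. Wdr12 differed by 0.56 (SE 0.22). The SE and adjusted p of single genes here and below are from the fit with group as the single term.

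Chromosome 1 carries 7 of the 51 genes, namely Imp4, Ncl, Wdr12, Rrs1, Ddx18, Nop58 and Wdr75, and all 7 lay above 0, by 0.15 to 0.69. The median over the 598 tested genes of chromosome 1 was 0.324. With the median of each chromosome removed from each library, the 7 genes spanned -0.16 to 0.38, Imp4 stood at 0.38, Ncl at 0.25 and Nop58 at 0.07, and Wdr75 lay below 0. Wdr75 was singled out after its values were seen. Of the 44 genes elsewhere 22 lay above 0. Gar1 on chromosome 3 (median of its tested genes 0.214) was 0.35 higher and 0.14 with chromosome medians removed.

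All members on chromosomes 16, 17 and 19, whose medians over all tested genes lay furthest below 0, were lower in the libraries labelled Six2 by their values. None was called with group as the single term. Other chromosomes had medians below but nearer 0, and their members lay on both sides. On chromosome 11 (median -0.0484) 5 of 8 members lay above 0, and on chromosome 5 (median -0.0444) 0 of 2. The 3 members on chromosome 17 (Polr1c, Wdr43 and Rrp1b) and the 3 on chromosome 19 (Nolc1, Rrp12 and Noc3l) were all below 0, where the chromosome medians were -0.208 and -0.135. Polr1c averaged 42.9 ± 1.49 RPKM in the libraries labelled Six2 and 51.2 ± 0.126 RPKM in control libraries (difference -0.25, limma adjusted p = 0.283), and the difference was -0.03 with chromosome medians removed. Rrn3 on chromosome 16 (median -0.211) had a difference of -0.25, and of -0.03 with chromosome medians removed. Nop10 on chromosome 2 (112261926 to 112263269, median -0.0404) averaged 55.9 ± 1.26 RPKM in the libraries labelled Six2 and 72.5 ± 0.762 RPKM in control libraries, and its difference of -0.37 (SE 0.0874, limma adjusted p = 0.176) was -0.32 with chromosome medians removed. Polr1c and Nop10 were the 2 members with both Six2-labelled libraries below both control libraries, against 25.5% of tested genes. Their replicate differences were 0.03 each, and a large one makes overlap between the groups more likely. Over the 51 genes the SD of the differences was 0.223, and 0.137 with chromosome medians removed.

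**Figure D4:**
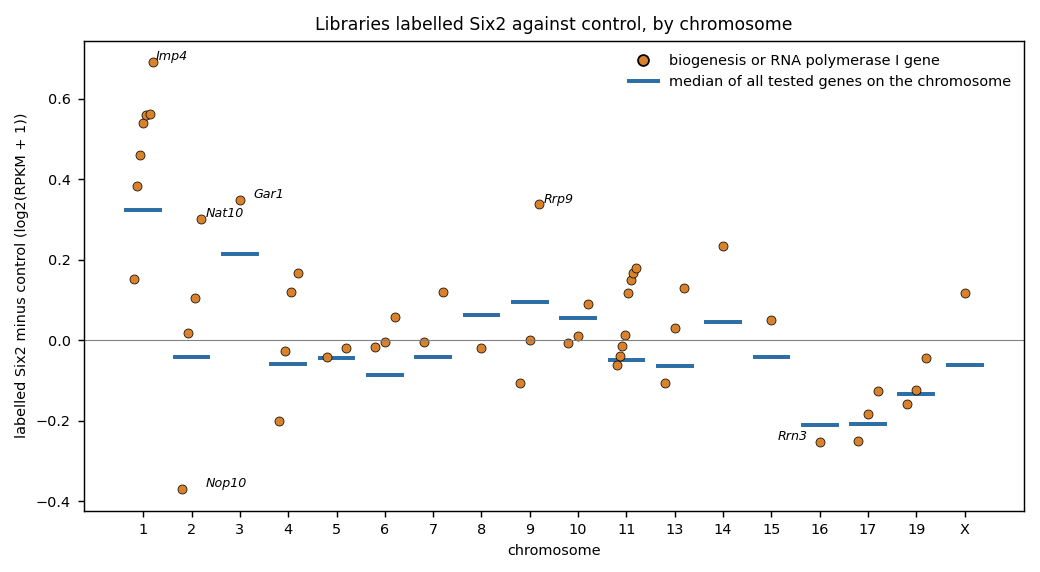
Orange points are the 51 genes placed by chromosome, with the difference between the libraries labelled Six2 and the control libraries on the log2(RPKM + 1) scale on the y axis. Blue bars are the medians of all tested genes on each chromosome. The 7 points of chromosome 1 lie above 0, where the bar is at 0.324, and those of chromosomes 16, 17 and 19 lie below 0.

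With group as the single term, 1 of the 8 epithelial and mesenchymal markers tested was called between the labels, the keratin gene Krt7. Krt7 had 0.634 and 0.467 RPKM in Six2-labelled replicates 2 and 1, against 8.67 and 10.8 RPKM in control replicates 2 and 1 (limma adjusted p = 0.0397). Cdh1 had 0.103 and 0.186 RPKM in Six2-labelled replicates 2 and 1, against 8.40 and 14.6 RPKM in control replicates 2 and 1 (limma adjusted p = 0.0592). The whole epithelial list of 6 genes summed to 998 and 1664 RPKM in Six2-labelled replicates 2 and 1, against 1238 and 1894 RPKM in control replicates 2 and 1, and 1 of its 5 tested genes was called lower. The mesenchymal marker Fn1 had 206 and 287 RPKM in Six2-labelled replicates 2 and 1, against 408 and 667 RPKM in control replicates 2 and 1 (limma adjusted p = 0.204). Sparc had 160 and 142 RPKM in Six2-labelled replicates 2 and 1, against 250.2 and 287 RPKM in control replicates 2 and 1 (limma adjusted p = 0.108). For these 4 genes and Krt19 both Six2-labelled libraries lay below both control libraries. The part of these markers in the values of the 51 genes was not tested.

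The neighbouring lists gave no call either with group as the single term. Limma called 0 of the 103 further biogenesis factors, 0 of the 22 RNA polymerase III genes and 0 of the 82 ribosomal protein genes. It also called 0 of 16 other Pol I genes, 0 of 11 Myc and Max network genes and 0 of 11 snoRNA host genes. At an unadjusted p under 0.05 there were 3, 1, 7, 4, 2 and 1 in the same order, against 17% of all tested genes. Among the highest expressed, Rrp1 had 140.8 and 146 RPKM in Six2-labelled replicates 2 and 1 and 132 and 149 RPKM in control replicates 2 and 1, and Eif6, which keeps the subunits apart, had 144 and 114 RPKM in Six2-labelled replicates 2 and 1 and 151 and 128 RPKM in control replicates 2 and 1. Myc differed by 0.18 and Max, its partner, by 0.58 (limma adjusted p = 0.774 and 0.156). Max lies on chromosome 12, whose median was 0.249.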

How the data were processed

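Poly(A) RNA of 4T07 cells was sequenced in 4 libraries with a TruSeq stranded mRNA kit, per the labels' protocols. The authors deposited RPKM values for 24421 genes, with no further scaling stated. The submitters' processing notes name TopHat2 2.1.1, Bowtie2, HTSeq 0.8.0, SAMtools 1.5, Picard 2.9.4 and the builds GRCm38 and mm10, and the annotation, gene lengths, strand setting and treatment of shared reads are not stated there.

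Read totals and reads per gene were recovered from the RPKM steps, within 0.001 reads for 14459 of 14459 genes above 0 in 3 or more libraries. Any factor that reads and length of a gene have in common goes unseen, so reads may be understated.

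limma 3.58.1 (R 4.3.3) fitted log2(RPKM + 1) with a variance trend, on genes that reached 1 RPKM in 2 libraries or more. Tests were two-sided, and calls were made at 0.05 after Benjamini-Hochberg adjustment. Group was the single term for the comparison of labels, and group and replicate number together served for the replicate comparison, which leaves 1 residual degree of freedom. Fold changes on this scale understate the change of low genes. Fits were tested on simulated reads. Alternatives were a pseudocount of 0.1, no filter, median-of-ratios scaling, voom on recovered reads, chromosome medians removed, each library left out, and the replicate number or the group term added or dropped.

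The 51 genes and the other lists were chosen with earlier results of these data known. Values were given for the 15 called genes with the largest difference, for the 2 most expressed and the most different genes of each role, and for up to 3 called genes in each direction of the other lists. Polr1a, Polr1b, Polr1c, Nop10, Pes1, Wdr75, Ddx18, Gar1, Gnl3, Rrp1b and Noc3l were named after their values were seen. So were genes given only as the end of a range or for an overlap. Coordinates come from GENCODE M21 (GRCm38).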

Additional observations from a re-analysis of the deposited data

Results flagged for a closer look

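Polr1c, the subunit shared by RNA polymerases I and III, was flagged because its replicate difference has opposite signs in the 2 groups. Replicate 2 minus replicate 1 was 0.0692 in the libraries labelled Six2 and -0.00491 in the control libraries, on the log2(RPKM + 1) scale. Each value rests on 1 pair of libraries, and the difference between them was not tested.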

How the results depend on the processing

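The replicate 2 against 1 calls of the 51 genes (47 higher, 1 lower) held within 1.5 times under a pseudocount of 0.1 and voom. Median-of-ratios scaling gave 48 higher and 0 lower, chromosome medians removed 47 and 0, and no filter 45 and 0. They fell to 0 and 0 without the group term and in each of the 4 fits that left out a library, which also drop that term. Over all genes the calls were 1143 higher and 1440 lower with no filter, and 0 and 0 without the group term or any library. The members' median was 0.518, 0.504 and 0.505 with median-of-ratios scaling, a pseudocount of 0.1 and voom, and 0.447 to 0.499 with a library left out. With a library left out, which makes the comparison uneven in group, Imp4 spanned -0.00149 to 0.779, Nop10 -0.158 to 0.224 and Polr1c -0.112 to 0.176.

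In the comparison of labels, with no filter 0 genes higher and 0 lower were called (2503 at an unadjusted p under 0.05 in limma), and median-of-ratios scaling gave 24 lower. Leaving out a library gave 2 to 18 higher and 9 to 50 lower genes, 0 members, and a member median of -0.217 to 0.302. That median was 0.0777 with chromosome medians removed, 0.0571 with median-of-ratios scaling, 0.0193 with a pseudocount of 0.1 and 0.035 with voom. Wdr75 stood at -0.161 with chromosome medians removed and at -0.174 to 0.48 with a library left out. The cause of these changes was not tested. With the replicate number as a block, 2133 genes were higher and 2506 lower in the libraries labelled Six2, among them 12 and 4 members. The labels do not say that the numbers pair the samples. Differences between replicates correlated at r = 0.818 across genes between the groups. The fits have 1 or 2 residual degrees of freedom, and the number of libraries limits their precision.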
